A study of Mus musculus with 3 samples.

Results

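The decision of an endothelial cell (EC) to leave quiescence is taken in the G1 phase of the cell cycle, and 10 genes that act at this step were followed in lung ECs of mice given melanoma cells. They are the D-type cyclins Ccnd1, Ccnd2 and Ccnd3, the kinases Cdk4 and Cdk6 that the cyclins switch on, the kinase inhibitors Cdkn1a (p21), Cdkn1b (p27), Cdkn1c (p57) and Cdkn2c (p18), and Rb1, the retinoblastoma protein that the kinases phosphorylate. The genes were chosen by name, with earlier results of these data known, as 10 of the 32285 genes counted. All 10 were found in each library. As background, D cyclins are made in response to growth factors and adhesion, and each cyclin pairs with Cdk4 or Cdk6. The Cip/Kip inhibitors p21, p27 and p57 bind cyclin and kinase together, p18 binds the kinase alone, and unphosphorylated Rb1 holds back the E2F factors that turn on genes for DNA synthesis. Most ECs of the adult lung are out of the cycle.

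Each of 3 groups of wild-type C57BL/6 mice gave 1 single-cell RNA library. Control mice received PBS and were taken after 6 h. Mice of the tumor groups received 200000 B16-F10 cells in 100 µl PBS by the tail vein and were taken at 6 h or at 30 h. These cells, from a mouse melanoma that makes pigment, lodge in the capillaries of the lung, and here carried a green tracker dye by which they were collected along with the ECs. The mice were young adult males per the study's methods. The labels give 2 mice per treatment and the methods give 3, with the lungs of a group pooled into 1 library. ECs were sorted as PECAM1-positive and PTPRC-negative cells after a warm collagenase digestion that was shared by all groups. No library of mice given PBS for 30 h was analysed here, so the effect of 30 h of time and that of the tumor cells cannot be told apart. Since no group has a second library among the data analysed here, replicate error is unknown, no test was made and no p-value was computed. Every interval printed is at 95% and covers the counting of UMIs only, where a UMI is the random tag of 1 captured RNA molecule.

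A barcode was taken as endothelial when it held 1000 to 5000 genes, under 20% mitochondrial UMIs and at least 2 UMIs of Pecam1 plus Cdh5, which left 11231 control, 10583 6 h and 9278 30 h barcodes. The barcodes of each library are called control, 6 h and 30 h ECs. Their median depth was 7782, 8033 and 8676 UMIs. Between 22 and 38 barcode sequences were shared by any pair of libraries, which is at most 0.399% of either. The level of a gene is its summed UMIs as CPM, the share of all UMIs of the same barcodes scaled to 1000000. The libraries were made from 3′ ends, so levels were compared between libraries and between cell classes for 1 gene at a time, and not between genes. Differences are log2 ratios of CPM + 1, and a ratio of at least 0.5 on that scale, either way, was used as the mark of a difference to count.

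Of the 10 genes, 2 were higher by 0.5 at 6 h than in the control library and 0 were lower, where 2.57% of the 10175 genes that reached 5 CPM on average over the libraries were higher and 1.81% were lower. At 30 h, 2 of the 10 were higher than in the control library and 2 were lower, beside 5.87% and 7.34% of all genes. Against 6 h, the 30 h library had 1 of the 10 higher and 1 lower, beside 6.39% and 6.82% of all genes. The genes past the mark were Ccnd1 and Ccnd2 upward, and Cdkn1a and Rb1 downward, with the last 2 lying at its edge. With ratios centred on the median of all genes, 0 of the 10 were lower at 30 h than in the control library. All 10 genes passed that filter on low values. The median log2 ratio of the 10 genes was -0.15 at 6 h and -0.18 at 30 h against control, beside -0.01 and -0.07 for all genes.

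**Figure D1:**
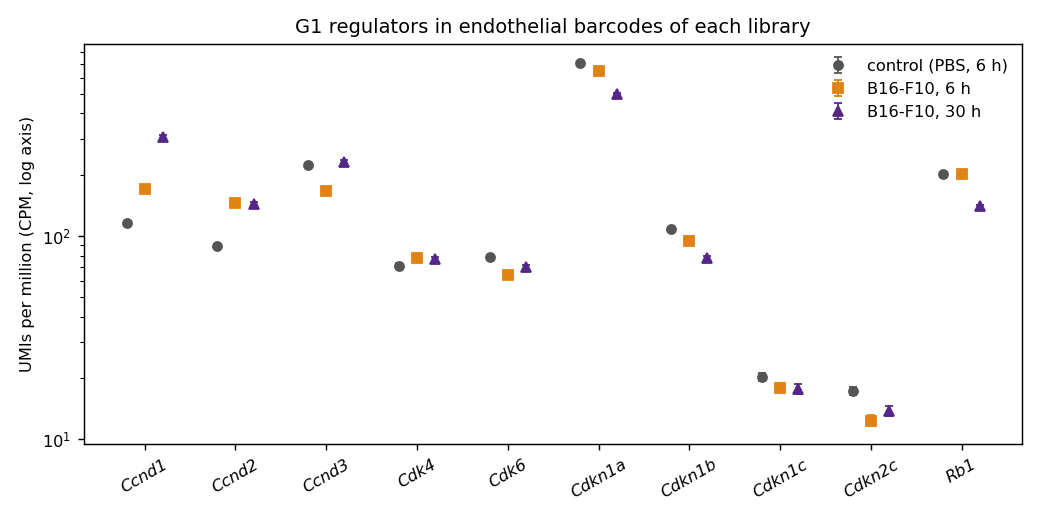
Level of each of the 10 genes in the endothelial barcodes of the control, 6 h and 30 h libraries, in CPM on a log axis. Points are 1 library each and bars are exact Poisson intervals at 95%. Ccnd1 climbs from 115 through 170 to 308 CPM, and Cdkn1a steps down from 708 through 646 to 500 CPM.

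The 250 bases before the RefSeq start sites of Cdkn1a and Cdk6, whose levels were laid out in opposite ways over the capillary classes described further on, are shown with that of Ccnd3, the D cyclin that was lower at 6 h. Bases are in lower case, 5′ to 3′ on the gene's strand, from GRCm38.p6, and capitals mark the letters of the motifs TTTGGCGC and TTTCCCGC (E2F), GTAAACA (FOXO) and GGGCGG (Sp1) on either strand.
Cdkn1a, upstream start, chr17:29090729-29090978, plus strand: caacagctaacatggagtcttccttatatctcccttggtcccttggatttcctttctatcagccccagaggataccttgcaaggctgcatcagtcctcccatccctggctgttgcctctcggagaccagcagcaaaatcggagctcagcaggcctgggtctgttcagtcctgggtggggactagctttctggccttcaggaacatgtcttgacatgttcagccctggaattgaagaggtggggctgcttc
Cdkn1a, downstream start, chr17:29093519-29093768, plus strand: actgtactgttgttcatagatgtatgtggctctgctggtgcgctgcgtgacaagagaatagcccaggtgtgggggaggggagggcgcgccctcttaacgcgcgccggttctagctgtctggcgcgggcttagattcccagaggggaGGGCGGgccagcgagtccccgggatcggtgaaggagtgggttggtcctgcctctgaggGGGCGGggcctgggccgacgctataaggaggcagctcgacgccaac
Cdk6, chr5:3343643-3343892, plus strand: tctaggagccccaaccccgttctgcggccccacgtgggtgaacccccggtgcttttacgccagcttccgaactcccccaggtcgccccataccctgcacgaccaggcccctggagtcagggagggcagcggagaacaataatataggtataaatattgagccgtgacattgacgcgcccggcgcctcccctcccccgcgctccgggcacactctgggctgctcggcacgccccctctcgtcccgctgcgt
Ccnd3, upstream start, chr17:47504801-47505050, plus strand: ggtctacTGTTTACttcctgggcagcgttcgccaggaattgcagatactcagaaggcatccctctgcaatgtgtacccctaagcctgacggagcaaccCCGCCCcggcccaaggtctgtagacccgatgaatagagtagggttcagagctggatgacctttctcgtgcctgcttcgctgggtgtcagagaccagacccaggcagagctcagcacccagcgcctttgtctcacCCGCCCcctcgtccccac

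RefSeq promoter windows were matched for 6 of the 10 genes, with 9 start sites. The motif GGGCGG was in 6 of the 9 windows and in 32.7% of all 32851 windows. The downstream Cdkn1a and upstream Ccnd3 windows held it at 2 places each, and the Cdk6 window held none. GTAAACA was in the upstream Ccnd3 window alone among the 9, and in 3.17% of all windows. TTTGGCGC and TTTCCCGC were in 0 of the 9, and in 0.417% and 0.895% of all windows. CACCC, the core that KLF factors bind, was in 7 of the 9 windows and in 52.01% of all windows, and is not in capitals. In the upstream Ccnd3 window 1 of its matches shares bases with GGGCGG read on the other strand. The Cdk6 window was 66.0% G and C, beside a median of 52.4%. These letters describe the windows and are not shown to be bound.

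The D cyclins did not move as a block. Ccnd1, the cyclin D1 gene (chr7:144929931-144939925, minus strand, GRCm38), had 115 CPM in control ECs, 170 CPM in 6 h ECs and 308 CPM in 30 h ECs. The log2 ratio against control was 0.55 (interval 0.52 to 0.59) at 6 h and 1.41 (1.38 to 1.45) at 30 h, which is 2.65-fold. Most of the difference was thus between 6 h and 30 h, where the ratio was 0.85 (0.83 to 0.89).

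Ccnd2, the cyclin D2 gene (chr6:127125162-127152193, minus strand), stood at 88.8 CPM in control ECs, 145 CPM in 6 h ECs and 144 CPM in 30 h ECs. It was 1.62-fold higher at 6 h and 1.61-fold higher at 30 h than in the control library. The 2 tumor libraries differed from each other by -0.01 on the log2 scale (-0.05 to 0.03). Unlike Ccnd1, Ccnd2 was thus at its later level already at 6 h.

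Ccnd3, the cyclin D3 gene (chr17:47505051-47599691, plus strand), had 224 CPM in control ECs, 166 CPM in 6 h ECs and 232 CPM in 30 h ECs. Its ratio against control was -0.43 (-0.46 to -0.40) at 6 h and 0.05 (0.02 to 0.08) at 30 h. It was the D cyclin that was lower at 6 h, and at 30 h it lay close to the control level.

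Added up, the D cyclins came to 428 CPM in control ECs, 480 CPM in 6 h ECs and 683 CPM in 30 h ECs. Ccnd3 gave 52.3% of these UMIs in control ECs, 34.5% in 6 h ECs and 33.9% in 30 h ECs. The share of Ccnd1 went from 27.0% through 35.4% to 45.0%. That of Ccnd2 was 20.7% in control ECs, 30.1% in 6 h ECs and 21.0% in 30 h ECs. These shares count captured 3′ ends and were read only for how they differ between libraries.

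Cdk4 and Cdk6, the catalytic partners, differed little over all ECs. Cdk4 (chr10:127063534-127067920, plus strand) had 71.5, 78.1 and 76.6 CPM in control, 6 h and 30 h ECs, with log2 ratios of 0.13 and 0.10 against control. Cdk6 (chr5:3341485-3531008, plus strand) had 79.1, 64.4 and 70.1 CPM, with ratios of -0.29 (-0.35 to -0.25) at 6 h and -0.17 (-0.23 to -0.12) at 30 h. Cdk6 differed far more between cell classes than between libraries.

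**Figure D2:**
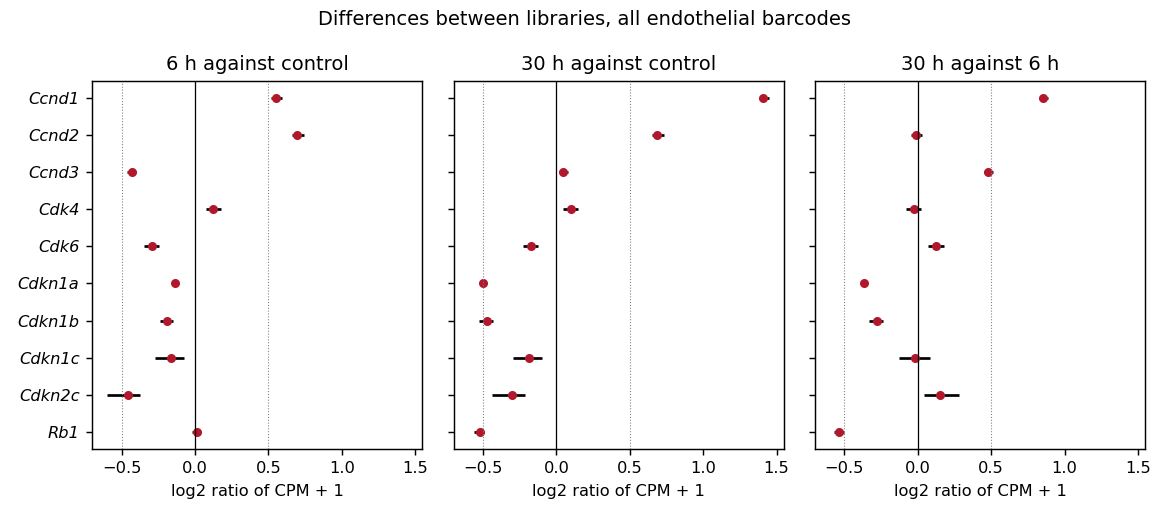
Log2 ratio of CPM + 1 of each of the 10 genes over all endothelial barcodes in the 3 comparisons of libraries. Red points are the ratios, black bars are exact conditional intervals at 95% for the counts alone, and dotted lines mark 0.5 and -0.5. Ccnd1 is to the right in every panel, Ccnd2 only in the comparisons with control, and Rb1 lies near 0 at 6 h and past -0.5 in both comparisons of the 30 h library.

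Cdkn1a (chr17:29090976-29100727, plus strand), which p53 and other stress signals are known to induce, stood at 708 CPM in control ECs, 646 CPM in 6 h ECs and 500 CPM in 30 h ECs. Its log2 ratio against control was -0.13 (-0.15 to -0.12) at 6 h and -0.50 (-0.52 to -0.48) at 30 h. Barcodes with at least 2000 UMIs were thinned to 2000, which left out 195 control, 197 6 h and 111 30 h ECs. The variance of Cdkn1a was then 2.38 times its mean in the control library, 2.32 times at 6 h and 1.81 times at 30 h. For comparison, Cdk4 gave 1.01, 1.02 and 0.991, close to the value of 1 that counting alone would give. Cdkn1a was therefore unevenly spread over the ECs, and less so at 30 h.

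Cdkn1b (chr6:134920401-134925513, plus strand), a mark of quiescent cells in many tissues, had 108, 94.5 and 77.7 CPM in control, 6 h and 30 h ECs. Its ratio was -0.19 (-0.24 to -0.15) at 6 h and -0.47 (-0.52 to -0.43) at 30 h, just short of the mark. Cdkn2c (chr4:109660876-109667189, minus strand), the Cdk4 and Cdk6 inhibitor p18, was sparse, with 17.3, 12.4 and 13.8 CPM. Its ratios were -0.45 (-0.60 to -0.37) at 6 h and -0.30 (-0.44 to -0.21) at 30 h.

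Cdkn1c (chr7:143458339-143461050, minus strand), an imprinted gene for p57, had 20.3, 18.0 and 17.7 CPM in control, 6 h and 30 h ECs. These UMIs sat in few barcodes, and their level was higher in barcodes that also held pericyte genes. Barcodes without any pericyte marker held 47.6% of them in control ECs, 55.2% in 6 h ECs and 55.7% in 30 h ECs. Barcodes with at least 3 such markers were deeper, with medians of 9592.5 to 10127 UMIs beside 7590.5 to 8503.5 with none. The part of depth was not tested. In the control library, the 248 barcodes with at least 3 distinct pericyte markers had 225 CPM of Cdkn1c, and the 8830 barcodes with none had 12.6 CPM. The same pair of values was 147 and 13.2 CPM at 6 h, and 86.7 and 13.8 CPM at 30 h. Barcodes with 2 or more pericyte markers were 643 of the control ECs and held 36.4% of their Cdkn1c UMIs, with 27.0% at 6 h and 28.1% at 30 h. Without them, the level was 13.8, 14.1 and 14.1 CPM, and the ratios against control were 0.03 (-0.08 to 0.16) at 6 h and 0.03 (-0.09 to 0.15) at 30 h. Cdk6 was also higher in the barcodes with at least 3 pericyte markers, at 179 beside 73.8 CPM in control ECs, 126 beside 61.3 CPM in 6 h ECs and 111 beside 66.1 CPM in 30 h ECs. This split by pericyte markers was made after the values had been seen. Over all ECs, the summed level of the 5 pericyte markers was 94.0, 73.4 and 91.2 CPM, and 0 of them were at 0.

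**Figure D3:**
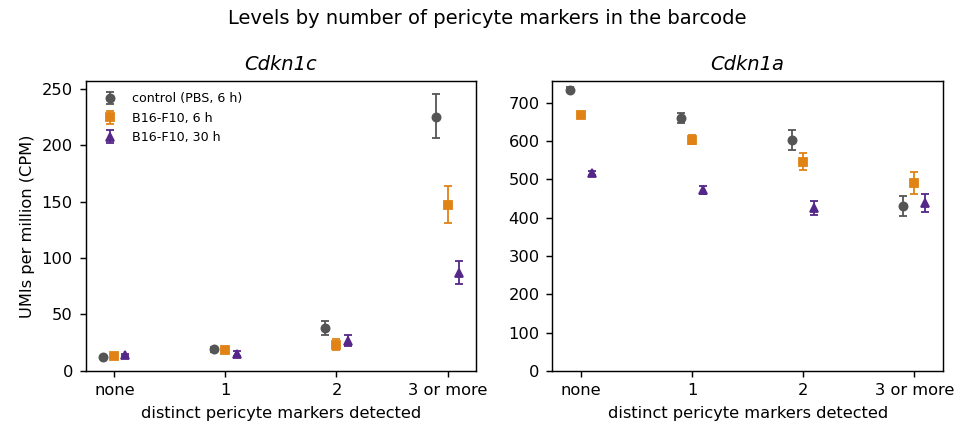
Level of Cdkn1c and Cdkn1a, in CPM, in endothelial barcodes with no, 1, 2 or at least 3 distinct pericyte markers. Points are the 3 libraries and bars are exact Poisson intervals at 95%. Cdkn1c is near 13 CPM without these markers and between 86.7 and 225 CPM with at least 3 of them, where Cdkn1a is between 430 and 490 CPM.

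Rb1 (chr14:73183673-73325822, minus strand) was at 201 CPM in control ECs, 203 CPM in 6 h ECs and 140 CPM in 30 h ECs. The ratio was 0.01 (-0.02 to 0.04) at 6 h and -0.52 (-0.56 to -0.49) at 30 h. Rb1 thus showed almost no difference at 6 h, and at 30 h had a ratio whose interval overlapped that of Cdkn1a. A gene model, Gm17233, overlaps the Rb1 locus on the same strand. How reads there were assigned, and whether Rb1 lost counts by it, was not tested. Another 7 of the 10 genes overlap annotated genes on the opposite strand only.

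Droplets without a cell moved in the same direction for Ccnd1 and Cdkn1a, and not for Rb1 at 6 h. In barcodes of 10 to 100 UMIs, the level of Ccnd1 was 93.5 CPM for control, 138 CPM for 6 h and 218 CPM for 30 h. Cdkn1a had 575, 490 and 325 CPM there. Rb1 had 66.1, 98.0 and 61.4 CPM, with ratios against control of 0.56 (0.04 to 1.10) at 6 h and -0.10 (-0.55 to 0.35) at 30 h, beside 0.01 and -0.52 in ECs. RNA free in the suspension, estimated from lung epithelial genes, came to 4.49% of the UMIs of control ECs, 7.65% for 6 h ECs and 5.49% for 30 h ECs. With the estimate of each library subtracted from its own ECs, the 30 h against control ratio was -0.49 for Cdkn1a and -0.52 for Rb1.

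Lung capillaries hold 2 main EC types, general capillary cells (gCap) and aerocytes (aCap), the large thin cells over which gas is exchanged. Barcodes were gated by at least 3 distinct markers of a class. The aCap gate took 1937 control, 1665 6 h and 1996 30 h barcodes. The aCap marker Ednrb was at 966 CPM there in the control library, beside 16.03 CPM in the gCap gate. Ednrb is among the markers that set both gates, so this difference follows from the gating. The gCap gate, which also allowed at most 1 marker of each other class, took 1869, 1840 and 1117 barcodes. It picked shallow barcodes, of 4716 to 5281 median UMIs. A wider gate with up to 2 such markers, set after the values had been seen, took 6538, 6397 and 4459 barcodes. The vein gate took 1144, 815 and 788 barcodes.

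The artery and lymphatic (LEC) gates were mixed at 3 markers. The artery-gated barcodes of the control library had the gCap marker Gpihbp1 at 1327 CPM, near the 1471 CPM of gCap-gated ones, and so they cannot be read as arterial cells. At 4 markers they still had Gpihbp1 at 1123 CPM, with the arterial genes Gja5 at 91.3 CPM and Bmx at 267 CPM. The LEC-gated barcodes at 4 markers were few, with 75 control, 60 6 h and 59 30 h barcodes, and had the lymphatic factor Prox1 at 683 CPM. Gja5, Bmx and Prox1 are markers of their own gates, so their levels are no independent check of these classes. For both classes the values below are those at 4 markers, and the names stand for the gate.

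Cdkn1a was highest in aCap-gated ECs in all 3 libraries. It had 1557 CPM in control ECs, 1233 CPM in 6 h ECs and 775 CPM in 30 h ECs there. In gCap-gated ECs it had 472, 520 and 391 CPM, and in vein-gated ECs 426, 434 and 407 CPM. The artery gate gave 370, 340 and 316 CPM, and the LEC gate 157, 222 and 81.2 CPM. The lowest aCap value was thus above the highest value of every other class. The 30 h against control ratio was -1.01 (-1.03 to -0.98) in aCap-gated ECs, -0.27 (-0.34 to -0.20) in gCap-gated ECs, -0.06 (-0.13 to 0.00) in vein-gated ECs and -0.23 (-0.36 to -0.10) in artery-gated ECs. In LEC-gated ECs it was -0.95 (-1.48 to -0.44) with 4 markers and -0.62 (-0.81 to -0.44) with 3. At 6 h the aCap ratio was -0.34 (-0.36 to -0.31), where the gCap ratio was 0.14 (0.08 to 0.20). The 30 h ratio was thus lowest in aCap-gated and LEC-gated barcodes, whose intervals overlapped with 4 LEC markers. The aCap-gated share of ECs was 17.2% in control ECs, 15.7% in 6 h ECs and 21.5% in 30 h ECs. With the level of each class weighted by the class shares of control ECs, the 30 h ratio over all ECs was -0.50. Whether classes differed in their ratios was not tested, since each library is 1 sample.

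Cdk6 had the opposite layout. In aCap-gated ECs it had 36.5, 27.9 and 35.6 CPM in control, 6 h and 30 h ECs, against 96.3, 72.8 and 81.5 CPM in gCap-gated ECs. Vein-gated ECs lay between, with 68.6, 63.0 and 53.5 CPM, and the artery gate gave 108, 110 and 110 CPM. In each library the aCap level was the lowest of the 5 classes. In vein-gated ECs the 30 h ratio against control was -0.35 (-0.53 to -0.19), and in aCap-gated ECs it was -0.04 (-0.18 to 0.11).

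**Figure D4:**
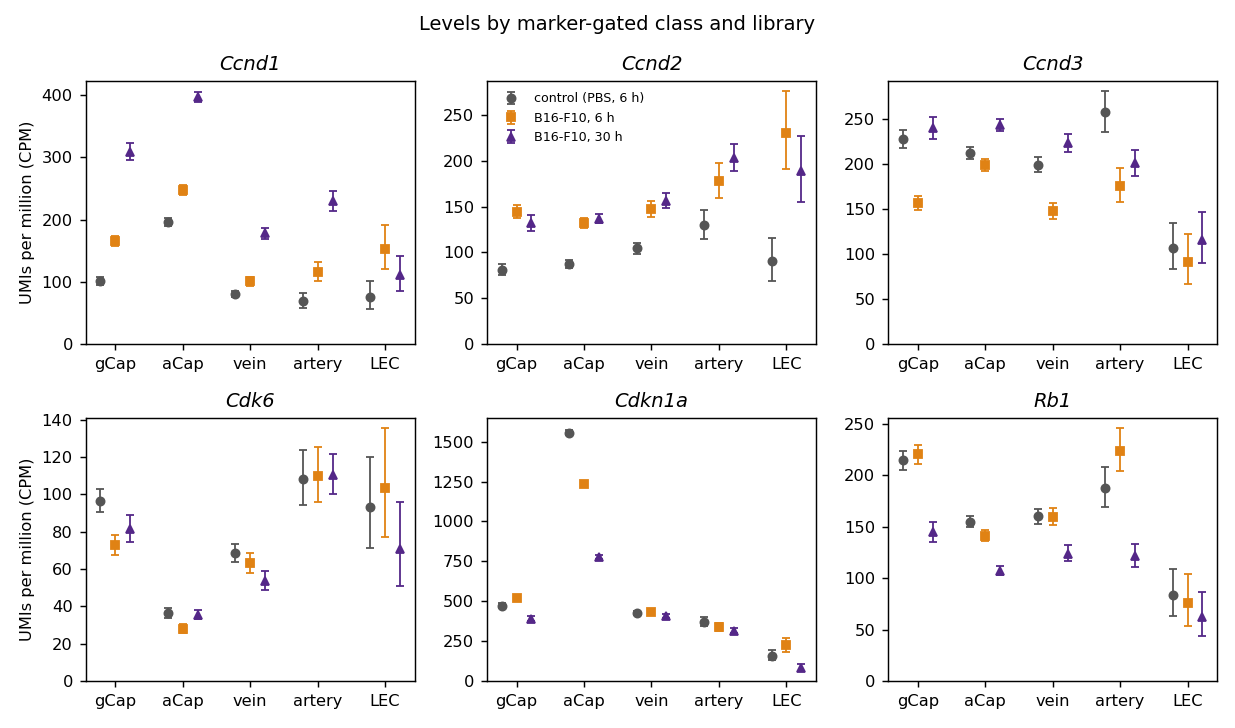
Level of 6 of the genes by marker-gated class, in CPM from 0, with 1 point per library and exact Poisson intervals at 95%. The gCap, aCap and vein gates use 3 markers and the artery and LEC gates use 4. Cdkn1a in aCap stands apart from all other classes, at 1557, 1233 and 775 CPM, and Cdk6 is lowest there.

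Counting aCap markers, from 0 to 7 per barcode, sharpened both patterns. In the control library, Cdkn1a was 458 CPM in the 4370 barcodes with no aCap marker and 1960 CPM in the 433 barcodes with all 7. At 6 h these levels were 483 and 1536 CPM, and at 30 h 379 and 941 CPM. Cdk6 was 91.5 CPM with no marker and 10.9 CPM with all 7 in the control library, 73.4 and 9.93 CPM at 6 h, and 83.7 and 9.39 CPM at 30 h. That is a log2 ratio of -2.96 (-3.47 to -2.69) in the control library, -2.77 (-3.30 to -2.50) at 6 h and -3.03 (-3.48 to -2.85) at 30 h. Barcodes with exactly 3 of the markers were still close to those with none, with Cdkn1a at 547 CPM and Cdk6 at 98.1 CPM in control ECs, so the aCap gate holds barcodes of both kinds. Depth moved with the marker number, from a median of 6525 UMIs at 0 to 12463 at 7 in the control library, and its part in these levels was not tested. With all 7 markers, the 30 h against control ratio was -1.06 (-1.10 to -1.02) for Cdkn1a, 0.74 (0.65 to 0.83) for Ccnd1 and -0.56 (-0.71 to -0.42) for Rb1. With none, it was -0.27 (-0.31 to -0.23), 1.61 (1.56 to 1.69) and -0.55 (-0.62 to -0.49). The intervals of Rb1 at both ends overlapped, and those of Cdkn1a and of Ccnd1 did not. The Cdkn1a ratio was lowest not at 7 markers but at 5, with -1.41 (-1.49 to -1.33). That of Cdk6 was 0.64 (0.28 to 1.03) at 5 markers and -0.20 (-0.71 to 0.29) at 7.

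**Figure D5:**
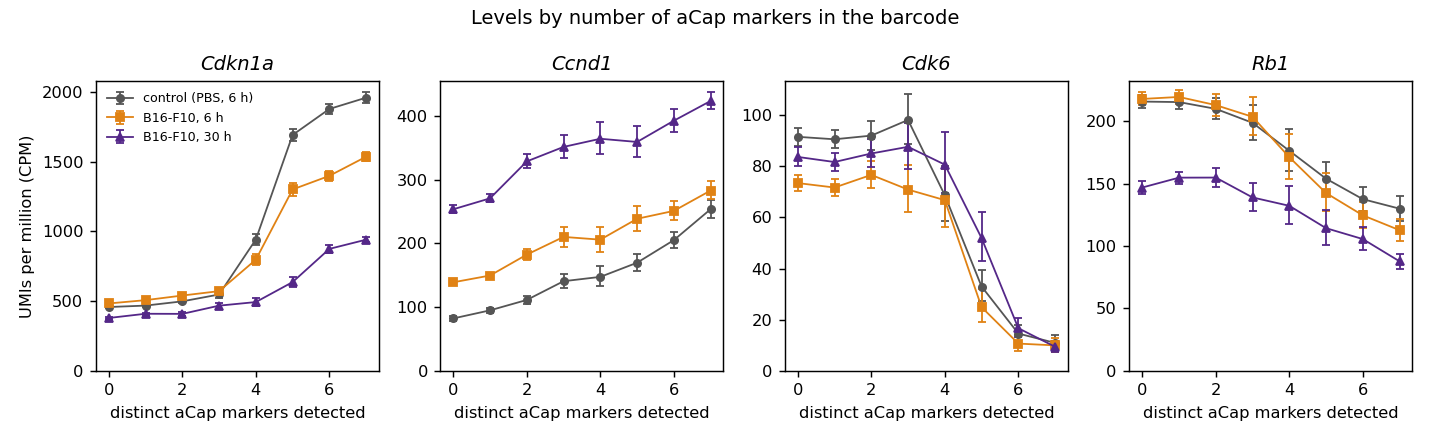
Level of Cdkn1a, Ccnd1, Cdk6 and Rb1, in CPM from 0, in endothelial barcodes grouped by how many of 7 aCap markers they held. Lines join the 8 groups of 1 library and bars are exact Poisson intervals at 95%. Cdkn1a bends upward and Cdk6 downward from 4 markers on, and the 30 h line lies above the others for Ccnd1 and below them for Rb1.

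At 30 h, 2 of the 10 genes were higher by 0.5 than in control ECs in gCap-gated, aCap-gated and vein-gated barcodes alike, Ccnd1 and Ccnd2, beside 7.76%, 7.18% and 6.61% of all genes. Lower by 0.5 were 2 genes in gCap-gated ECs (Cdkn1b and Rb1), 3 in aCap-gated ECs (Cdkn1a, Cdkn1c and Rb1) and 1 in vein-gated ECs (Cdkn2c), beside 11.3%, 9.47% and 8.52% of all genes. Ccnd1 was higher at 30 h than in control ECs in all 5 classes, though with 4 LEC markers the interval reached below 0. Its levels in control, 6 h and 30 h ECs were 102, 165 and 309 CPM in gCap-gated ECs and 196, 248 and 396 CPM in aCap-gated ECs. Vein-gated ECs had 80.7, 101 and 178 CPM. The ratio at 30 h was 1.59 (1.49 to 1.71) in gCap-gated, 1.02 (0.97 to 1.07) in aCap-gated and 1.13 (1.02 to 1.26) in vein-gated ECs. In LEC-gated ECs it was 1.26 (1.03 to 1.51) with 3 markers and 0.53 (-0.02 to 1.10) with 4. The aCap level was above the gCap level in each library. On the log2 scale this was by 0.93 in control ECs, 0.58 in 6 h ECs and 0.36 in 30 h ECs. The aCap and gCap gates thus lay closer to each other at 30 h. Vein-gated against gCap-gated ECs had ratios of -0.33, -0.71 and -0.79 in the same order, and so lay further apart.

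Ccnd3 was lower at 6 h in gCap-gated ECs by a log2 ratio of -0.53 (-0.63 to -0.44) and in vein-gated ECs by -0.43 (-0.53 to -0.33). In aCap-gated ECs the ratio was -0.09 (-0.15 to -0.02), with 212 CPM in the control library and 199 CPM at 6 h. Ccnd2 was higher at 6 h in all of these, by 0.82 (0.70 to 0.95) in gCap-gated, 0.59 (0.51 to 0.69) in aCap-gated and 0.49 (0.38 to 0.61) in vein-gated ECs. The 6 h pattern of Ccnd2 up and Ccnd3 down was thus present in gCap-gated and vein-gated ECs, and for Ccnd3 barely in aCap-gated ones.

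Cdkn1b at 30 h had ratios of -0.71 (-0.88 to -0.55) in gCap-gated, -0.45 (-0.55 to -0.37) in aCap-gated and -0.41 (-0.56 to -0.27) in vein-gated ECs. With the wider gCap gate the first of these was -0.51 (-0.59 to -0.45), and that of Rb1 was -0.49 (-0.54 to -0.45), short of the mark. Rb1 at 30 h had ratios of -0.57 (-0.68 to -0.46), -0.53 (-0.61 to -0.45) and -0.37 (-0.48 to -0.26) in the same classes. Cdkn2c was highest in vein-gated ECs of the control library, at 24.2 CPM beside 15.5 CPM in gCap-gated and 12.8 CPM in aCap-gated ECs. At 6 h and 30 h the vein level was 16.4 and 15.0 CPM, a ratio of -0.53 (-0.87 to -0.26) and -0.65 (-1.01 to -0.38). Cdk4 lay between 67.6 and 81.0 CPM in the gCap, aCap and vein gates of all 3 libraries.

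The study describes ECs rich in interferon genes and reactive capillary (rCap) ECs, and here both gates were applied within the wider gCap gate. Interferon-gated barcodes, with at least 4 of a list of interferon genes, were 1370, 1472 and 780 of the wider gCap gate. They had more Ccnd2 than the other gCap-gated barcodes in each library, with 114 against 73.8 CPM in the control library, 181 against 131 CPM at 6 h and 178 against 123 CPM at 30 h. The log2 ratios were 0.62 (0.53 to 0.72), 0.47 (0.40 to 0.54) and 0.53 (0.43 to 0.62). In the narrow gCap gate they were 0.36 (0.12 to 0.60), 0.45 (0.29 to 0.61) and 0.23 (-0.03 to 0.49). Cdkn1a in the wider gate differed by -0.01, -0.03 and 0.10. The interferon-gated barcodes were deeper, with medians of 7994 to 8972 UMIs against 6536 to 7218, and the part of depth was not tested.

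The rCap gate, of the 3 genes Pim3, Bcl3 and Tmem252, took 201 control, 629 6 h and 139 30 h barcodes of the wider gCap gate. At 6 h these had Cdkn1a at 685 CPM beside 500 CPM in the other gCap-gated barcodes, a ratio of 0.45 (0.41 to 0.50). Cdk6 was 49.5 beside 75.8 CPM, a ratio of -0.60 (-0.79 to -0.44), and Ccnd3 was 130 beside 160 CPM, a ratio of -0.29 (-0.40 to -0.19). Ccnd1 was 186 beside 157 CPM, a ratio of 0.25 (0.15 to 0.34). In the control library the same gate gave a Cdkn1a ratio of -0.02 (-0.12 to 0.07) and a Cdk6 ratio of 0.17 (-0.05 to 0.37). At 30 h the Cdkn1a ratio was 0.26 (0.15 to 0.38) and the Cdk6 ratio -0.05 (-0.34 to 0.23). The differences at 6 h were thus not all seen in the other libraries. The gate took fewer barcodes there, and the counting intervals of Cdkn1a and Cdk6 did not overlap those at 6 h. The rCap-gated barcodes had medians of 8987 to 9327 UMIs beside 6794 to 7508 in the rest, and the part of depth was not tested.

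Among ECs within the upper limit of 5000 genes, few held at least 4 markers of later cycle phases at once. Barcodes above that limit were left out of the counts that follow. Whether the limit removed ECs with such markers was not tested. Barcodes with at least 4 distinct S or G2/M markers were 10 of 11231 in the control library, 7 of 10583 at 6 h and 11 of 9278 at 30 h. Another 48, 66 and 50 barcodes were 1 marker short. The 11 barcodes at 30 h had Ccnd1 at 541 CPM beside 307 CPM in the rest, a ratio of 0.82 (0.52 to 1.10), and Cdkn1a at 271 beside 500 CPM, a ratio of -0.88 (-1.32 to -0.48). The 10 control barcodes had Ccnd1 at 98.4 beside 115 CPM, from 10 UMIs, and Cdkn1a at 807 beside 708 CPM. The 7 barcodes at 6 h had Ccnd1 at 176 beside 170 CPM and Cdkn1a at 258 beside 646 CPM. The median depth of these barcodes was 10513, 9882 and 16753 UMIs in the control, 6 h and 30 h data, beside 7782, 8031 and 8673 in the rest, and the part of depth was not tested. Of 16 G2/M genes, 0 had a mean of 5 CPM over all ECs. Of 20 S phase genes 9 did, and at 6 h and at 30 h 0 of them were past 0.5 against control in either direction. The median of the 9 was 0.13 at 6 h and -0.05 at 30 h, beside -0.01 and -0.07 for all genes. Mcm2, a subunit of the DNA helicase, had 4.71, 5.13 and 6.73 CPM and the highest ratio at 30 h, 0.44. Its mean reached 5 CPM only through the 30 h value, so nothing is read from this rank. The lowest ratio at 30 h was -0.38, of Mcm7. The other 11 S phase genes were too low to be compared.

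The counts of the lists that follow stand beside the same shares of all genes, 2.57% higher and 1.81% lower at 6 h, and 5.87% higher and 7.34% lower at 30 h against control, and nothing is read from a count near them. Among 30 other G1/S regulators, 20 passed the filter on low values. At 6 h, 0 were past 0.5 either way, and at 30 h 0 were higher and 4 lower, with a median of -0.21. The 4 were E2f6, a repressor of E2F sites, at -0.73, Tfdp2, a partner of E2F factors, at -0.68, Cdkn2d, the p19 inhibitor, at -0.64, and Ambra1, which targets D cyclins for degradation, at -0.54. Of 18 p53 pathway genes 17 passed, with 1 higher and 2 lower at 6 h and 0 higher and 2 lower at 30 h. The median of the 17 was 0.20 at 6 h and -0.18 at 30 h, beside -0.01 and -0.07 for all genes. Gadd45a, a growth arrest gene, was 20.3, 22.2 and 9.30 CPM in control, 6 h and 30 h ECs, and Trp53inp1, a p53 cofactor, 64.7, 42.5 and 32.3 CPM. Aen, a p53-induced nuclease, was higher at 6 h, at 31.6 CPM beside 20.2 CPM. Of 22 genes known to act on these regulators 19 passed, with 1 higher and 5 lower at 30 h. Hes1, a Notch target, was 236, 244 and 418 CPM, and Id2, an inhibitor of differentiation factors, 127, 128 and 62.2 CPM.

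Stress, hormone and time-of-day genes also differed between the libraries. At 6 h, 10 of 10 heat shock genes were higher by 0.5, with Hspa1b at 111 CPM beside 17.2 CPM, and at 30 h 1 was higher and 1 lower, with Hspa1b at 10.4 CPM. Of 14 immediate early genes that passed, 8 were higher at 6 h and 0 lower, with Atf3 at 550 beside 180 CPM, and at 30 h 1 was higher and 5 were lower. Of 8 glucocorticoid-responsive genes, 6 were lower at 6 h, among them Zbtb16, at 105 CPM beside 229 CPM. At 30 h 1 was higher and 2 were lower, with Zbtb16 at 250.4 CPM. The 2 were Sult1a1, with 75.9, 33.4 and 26.5 CPM in control, 6 h and 30 h ECs, and Fkbp5, with 49.2, 26.8 and 17.5 CPM. The 1 higher was Per1, with 24.8, 13.0 and 43.2 CPM. Of 8 clock genes that passed, 3 were higher and 3 lower at 30 h, with Arntl at 16.4 CPM beside 37.3 CPM and Nr1d1 at 25.0 CPM beside 9.80 CPM. The part of these in the levels of the 10 genes was not tested.

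Over 12 sums, of the gCap, aCap, artery and vein gates in each library, the genes whose log2 level followed a member most closely were found among 6900 candidates. For Ccnd1 they were Gimap4, Myl12a and Pea15a, with Pearson's r of 0.989, 0.984 and 0.983. For Cdkn1a they were Ube2o, Gna13 and Trim16, with 0.986, 0.984 and 0.981. For Cdk6 they were Tns1, Arhgap5 and Slc24a4, with 0.981, 0.980 and 0.979. Ccnd3 was followed by Txnip, Zbtb16 and Tmem50a, with 0.921, 0.915 and 0.901. Rb1 was followed by Ythdc1, Hgf and Stag1, at 0.973, 0.973 and 0.972, and Ccnd2 by Tubb5, Actg1 and Psmb10, at 0.926, 0.916 and 0.915. The sums share libraries and gates, so these values are a description of likeness among 12 points that are not independent.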

How the data were processed

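RNA of sorted mouse lung ECs was counted by 3′ single-cell sequencing in droplets, in 3 libraries. The authors deposited raw UMI counts of every barcode, which they made with Cell Ranger 7.2.0 per the file headers, where the study's methods name an earlier version, on mm10 (GRCm38) per those methods. Whether intronic reads were counted is not given in the sources used here. Total counts per library were 140601123 (control), 132566934 (6 h) and 124085451 (30 h). From the counts, barcodes were filtered and gated as stated, the UMIs of each class in a library were added up and expressed as CPM (numpy 2.4.6, scipy 1.17.1). Intervals are exact Poisson for sums, exact conditional binomial for ratios and Clopper-Pearson for shares, and leave out variation between mice. The functions were tested on simulated data. The 10 genes, the gene lists and the markers were chosen with earlier results of these data known. Besides the 10 genes, at most 4 genes per list were named, those with the largest ratio against control, and the 3 likest genes of a member. Doublets were kept in the main values, and removing the highest Scrublet scores (scanpy 1.11.5) was an alternative. Positions are from GENCODE M21 and promoter sequences from RefSeq. The tested alternatives were doublets, filters, gates, thinning, scaling, pseudocount, free RNA and class weights.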

Additional observations from a re-analysis of the deposited data

Results flagged for a closer look

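In 5 cases a gene had ratios of opposite sign in a pair of classes, each with a counting interval that leaves out 0. The differences between classes were not tested, since each library is 1 sample. Cdkn1a at 6 h against control was 0.29 in LEC-gated and -0.34 in aCap-gated ECs. With 4 LEC markers the first was 0.50 (0.10 to 0.90). Ccnd3 at 30 h against control was 0.20 in aCap-gated and -0.18 in artery-gated ECs, and the latter was -0.36 with 4 markers. Cdk6 at 30 h against 6 h was 0.34 in aCap-gated and -0.23 in vein-gated ECs. Cdkn1c at 30 h was 0.90 against control in LEC-gated and -0.87 in aCap-gated ECs, and 1.54 and -0.49 against 6 h. The LEC values of Cdkn1c rest on 27 control, 14 6 h and 40 30 h UMIs, and with 4 markers both 30 h ratios changed sign.

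The 6 h library held 45 barcodes with at least 4 melanoma markers, of which 31 had under 5 UMIs of Pecam1 plus Cdh5. The gate for ECs, at 2 such UMIs, was not set to remove melanoma barcodes, and 218 of the 6 h ECs held at least 2 melanoma markers, beside 63 control and 62 30 h ECs. The following values are of the 31 barcodes. Ccnd2 was at 259.8 CPM (197.7 to 335.1), above the 145 CPM of ECs of that library, and Cdk4 was at 154.1 CPM (107.3 to 214.3), beside 78.1 CPM. Ccnd3 was at 30.8 CPM beside 166 CPM, and Cdkn1c had 0 UMIs of 227141. The control and 30 h libraries had 0 barcodes with at least 4 melanoma markers.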

How the results depend on the processing

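The counts of genes past 0.5 followed a few ratios near that mark. At 30 h against control, 2 genes were lower in the main setting, and 1 with free RNA subtracted, with the class mix of the control library or with a pseudocount of 5 CPM. The count was 0 with ratios centred on all genes or scaled without mitochondrial and ribosomal RNA models, and 4 at a mark of 0.3. For 6 h against control, 1 was lower with at least 300 genes or with thinning, and 2 at a mark of 0.3 or without barcodes of another type. For 30 h against 6 h, 2 were higher in place of 1 with centring, without those models or at 0.3. In place of 1, 0 were lower with class weights or centring, and 2 at 0.3. At a mark of 1.0, 1 gene was higher at 30 h against control and 0 in all other counts. Over 14 settings the 30 h against control ratio ran from 1.36 to 1.48 for Ccnd1, -0.61 to -0.43 for Cdkn1a and -0.59 to -0.45 for Rb1. That of Cdkn1c ran from -0.36 to 0.05. Of 420 values over all ECs, 357 stayed within the counting interval and 21 had the other sign. In classes, 663 of 780 stayed within it and 69 had the other sign, with some in each of the 5 classes. Of the 69, 6 had a main ratio past 0.5, all in LEC-gated ECs. For Cdkn1c these were at 6 h with 2 markers (0.016), and at 30 h with 4 markers against control (-1.04) and against 6 h (-0.71). The others were Ccnd1 at 30 h against 6 h with 4 markers (-0.46), and Cdkn2c against control with thinning at 6 h (0.24) and 30 h (0.19). Leaving out barcodes with markers of another type kept only 755, 1715 and 6074 ECs. Red cell markers, at least 2 of them, were in 10371 control, 8520 6 h and 1820 30 h ECs. With the red cell list set aside, an alternative chosen after seeing the data, 9517, 8574 and 7369 were kept. No paired analysis was possible because each group is 1 library.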
